A study of Mus musculus with 183 samples.

Results

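The RNA pool that remained after transcription had been stopped for 360 min was compared in mouse embryonic stem (ES) cells that lacked AVEN, before and after deletion of the SKIV2L helicase. The comparison used 6 RNA-seq libraries of clone 7E, 3 from day 0 and 3 from day 4 of 4-hydroxytamoxifen (4OHT), out of 183 samples in the series. They were chosen by their labels alone: clone 7E, 360 min of actinomycin D, and the day of 4OHT. All 6 libraries shared the same background. The labels describe it as Rosa26Cre-ERT2/BirA-V6, with Skiv2l tagged as 3xFLAG-Avi on both alleles and Aven-/-. The study's methods add a floxed Skiv2l allele and name the BirA fusion as V5. Clone 7E is 1 clone, so a feature of the clone and a feature of its genotype cannot be told apart. Day 4 cells had received 0.1 µM 4OHT for 4 days, and day 0 cells had not. Cells were grown in serum with LIF on gelatin and treated with actinomycin D for 6 hr. The labels give its dose as 5 µg/µl and the study's methods as 5 µM. Mock libraries of the same clone came from cells given DMSO for 6 hr. Clone 5F (Rosa26Cre-ERT2/- Skiv2lfl/fl per the labels) was set beside clone 7E in the histone time course and in a comparison of the clones. It has intact Aven, but it also lacks the BirA fusion and the Skiv2l tag, so the clones differ in more than Aven. The study describes its replicates as technical, so every p-value below measures only the spread between these libraries.

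SKIV2L is the helicase of the cytoplasmic Ski complex, which also holds TTC37 and WDR61. The complex feeds mRNA into the RNA exosome, a 3′ to 5′ nuclease, and it acts on mRNAs that are bound by ribosomes. AVEN is an RNA-binding protein that was first described as an inhibitor of cell death. Actinomycin D blocks transcription, so the RNA left at 360 min is RNA made earlier that has not yet been degraded. Its level depends on the level at the start as well as on how much was lost, so mock libraries are set beside it.

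The deletions were placed by Cas9 cuts whose target sites were located in GRCm38. They are shown because they define the genotype of all 6 libraries, with the PAM, the 3 bases Cas9 requires next to its target, in capitals. The Skiv2l sites lie in introns 10 and 17 of the gene (chr17:34839228-34850210, minus strand), where loxP sites were inserted, and recombination removes exons 11 to 17, which encode the catalytic core. The Aven sites lie in exons 3 and 6 of the gene (chr2:112492964-112634573, plus strand), exon 6 being the last.
Skiv2l intron 10, chr17:34846312-34846331, minus strand: gacctgggctaacttaggaaAGG
Skiv2l intron 17, chr17:34844195-34844214, minus strand: tctccccttaaccttaaatgGGG
Aven exon 3, chr2:112625181-112625200, plus strand: gctgaggagaaagaatgggaTGG
Aven exon 6, chr2:112630912-112630931, plus strand: agagtgcctgaagcaaatgcTGG

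Skiv2l checked the labels. Its normalized counts, which are counts divided by a size factor for each library, were 1133, 1007 and 1154 at day 0 and 339, 363 and 334 at day 4. Every day 4 library lay below every day 0 library, and the log2 difference of day 4 minus day 0 was −1.67 ± 0.09 (SE, n = 3 and 3, edgeR quasi-likelihood test, adjusted p = 4.6e-07). The gene total also holds counts from exons outside the deleted ones, so it reports the deletion only in part. In the mock libraries the difference was −1.32. At day 0 and 360 min, every clone 7E library already lay far below those of clone 5F, whose Skiv2l counts are given with the comparison of the clones. Day 0 of clone 7E was thus low in Skiv2l RNA relative to clone 5F before 4OHT, and the reason was not tested. Aven had 38.6, 29.6 and 18.2 normalized counts at day 0 and 28.2, 37.8 and 22.8 at day 4, and the groups overlapped. In the libraries of clone 5F at 360 min, where Aven is intact, it had 1495, 1476 and 1563 at day 0 and 1441, 1402 and 1425 at day 4, far above every library of clone 7E. Of the other subunits, Ttc37 fell by 0.33 with all libraries, with an adjusted p of 0.103 without replicate 1 and 0.134 without replicate 2, and Wdr61 (−0.24) did not pass.

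The 6 libraries held 27189760 to 28800547 gene counts each, and their spread was uneven. The median absolute deviation from the group mean over genes, on the log2 scale, was 0.102, 0.0694 and 0.0846 for replicates 1 to 3 at day 0 and 0.103, 0.143 and 0.161 at day 4, so replicate 3 at day 4 stood farthest from its group. Mitochondrial ribosomal RNA took 0.737% of the counts in replicate 3 at day 0 and 0.370% in replicate 3 at day 4, against 1.35% to 2.89% in the other 4 libraries. Counts without each replicate number are therefore given for the whole pool and for most gene lists after actinomycin D. For the mock libraries, the change from mock to actinomycin D and the comparison of clones, list counts are given with all libraries only. How far those list counts depend on the replicates was not tested. Per ERCC spike-in count, a set of synthetic RNAs added to the lysis buffer, gene counts were 147, 137 and 129 at day 0 and 73.8, 72.9 and 55.0 at day 4. The mock libraries already differed in this way, with 312, 322 and 322 at day 0 and 152, 151 and 156 at day 4. Fewer cells and less RNA per cell cannot be told apart in these bulk samples. Relative to their own mock mean, 46.2%, 43.1% and 40.4% of the RNA was left at day 0 and 48.2%, 47.6% and 35.9% at day 4, so the groups overlapped and the lowest library was replicate 3 at day 4.

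Because of that shift, scaling each library by its ERCC counts moved the median log2 difference of all genes from −0.01 to −0.97. All differences below are relative to the pool as a whole, with the median of ratios as the size factor, and say how the composition of the surviving RNA changed. On the ERCC scale, 251 genes rose and 12286 fell.

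Over the whole pool, 15251 genes were tested. At day 4, 2147 genes (14.1%) were higher and 2106 (13.8%) lower at an adjusted p under 0.05. The counts of list members given below stand beside these shares. The number of genes called depended on the replicates: it was 1073 and 725 without replicate 1, 1189 and 789 without replicate 2, and 2074 and 2077 without replicate 3. Changes of at least 2-fold were uneven in direction, with 726 genes (4.76%) higher and 79 (0.518%) lower. Without regard to a test, 3196 genes (21%) had every day 4 library above every day 0 library and 3348 (22%) had every day 4 library below. More genes were seen at all at day 4: at least 1 count was found for 24000 to 24255 genes, against 23165 to 23365 at day 0. The 726 genes with a rise of at least 2-fold were mostly low in counts, with a median mean count of 36.2, and 662 of them are protein-coding.

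Part of this difference was present before actinomycin D. In the mock libraries 3374 of 16333 genes (20.7%) were higher and 3181 (19.5%) lower at day 4. Of the 2147 genes higher at 360 min, 1476 were higher in the mock libraries as well and 39 were lower there. Of the 2106 lower genes, 1338 were lower and 49 higher. The difference between the days changed from mock to 360 min, by an interaction test, for 511 of 16918 genes (3.02%) upwards and 365 (2.16%) downwards. Without replicate 1 the interaction test called 96 and 60, without replicate 2 it called 127 and 84, and without replicate 3 it called 398 and 342. Below, this interaction is called the change from mock, and it is the part of a difference that arose during the 360 min.

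Of the 10 RNAs with the largest share of counts, which also scales with their length, 8 did not pass the test. Rn7sk, the RNA that holds the transcription factor P-TEFb inactive, took 1.44% to 1.76% of the counts. The mitochondrial ribosomal RNA mt-Rnr2 took 0.337% to 2.49%, with replicate 3 lowest on both days. The others, Eef2, a translation elongation factor, and Actb, cytoplasmic actin, passed with log2 differences of 0.25 and 0.24. Neither passed without replicate 1 (adjusted p 0.133 and 0.101) or without replicate 2 (0.416 and 0.313). Of 83 cytosolic ribosomal protein genes, 77 did not pass the test, 3 were higher and 3 lower, with a median of −0.03. The counts were 1 and 1 without replicate 2 and 3 and 10 without replicate 3, and 1 gene passed without replicate 1. Rpl3, whose unique counts were low and may share reads with pseudogene copies, had 209, 215 and 215 normalized counts at day 0 and 717, 776 and 682 at day 4. Long intergenic non-coding RNAs took 0.551%, 0.582% and 0.516% of the counts at day 0 and 0.668%, 0.712% and 0.749% at day 4. Those groups did not overlap, and the exact permutation test over the 6 libraries gave p = 0.1, the smallest value that 3 against 3 allows.

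**Figure D1:**
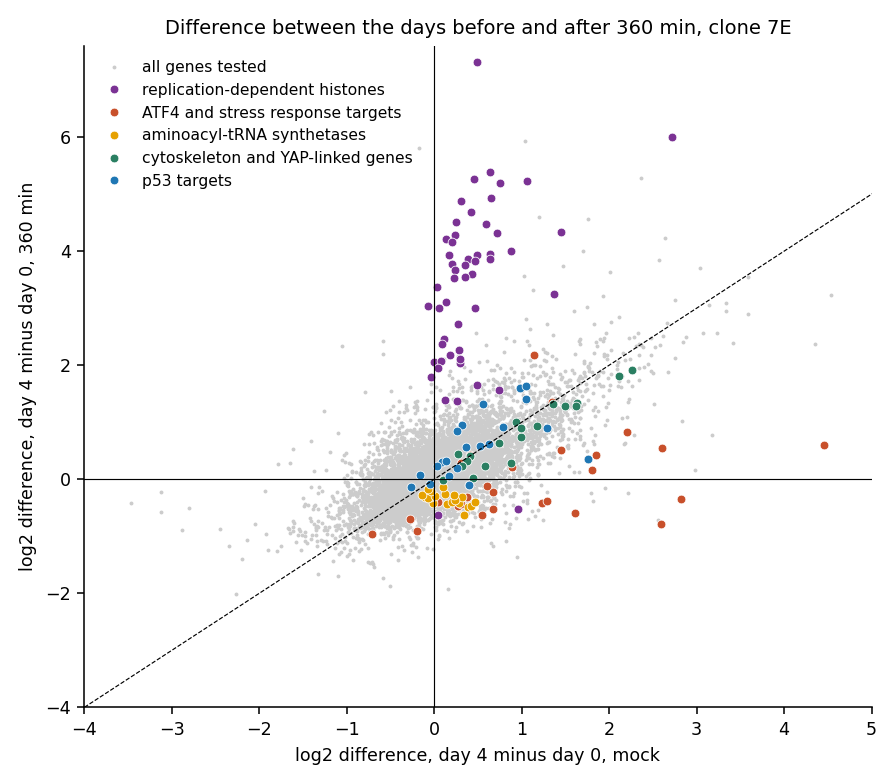
Log2 difference of day 4 minus day 0 in the mock libraries (horizontal axis) against the same difference at 360 min of actinomycin D (vertical axis) for genes of clone 7E, with 5 gene lists coloured and the dashed line marking equal differences. Replication-dependent histones (median 0.30 in mock, 3.63 at 360 min) mostly lay far above the line, and ATF4 and stress response targets (0.89 and −0.22) mostly lay below it.

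Replication-dependent histone mRNAs were higher at day 4, with the largest median change of the lists examined. These mRNAs are made in S phase, and most have no poly(A) tail. They end in a stem-loop that is bound by SLBP, and they are lost quickly when DNA synthesis stops. Ribosomal RNA depletion, rather than poly(A) selection, kept them in these libraries. Of the 66 genes on the list, 52 passed the filter on low counts, and 7 of the other 14 were at 0 in all 6 libraries. Of the 52, 50 were higher, 1 was lower and 1 did not pass. Their median log2 difference was 3.63, against −0.01 for all genes tested. Leaving out replicate 1, 2 or 3 gave 50, 48 and 50 higher, with medians of 3.82, 3.48 and 3.61. Many of the 52, such as Hist1h4k and Hist1h2ab, had few counts at day 0 and passed the filter only through day 4. Their direction was therefore fixed by the filter. Over all listed genes with any count, 51 of 59 were higher and 1 lower, with a median of 3.38. Of the 55 tested genes that rose at least 8-fold, 35 were histones. These also include genes that passed the filter only through day 4, so the count is no separate support.

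The stem-loops are shown because they are the feature that sets this group apart from other mRNAs, and because the genes at both ends of the range carry them. The search was for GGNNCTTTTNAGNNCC, on the sense strand, in the 200 bases after the last coding base in Gencode M21 on GRCm38. It matched 62 of the 66 listed genes (93.9%), and 49 of the 52 tested. It matched 1 of 11 replacement histones (H2afx) and 68 of 21852 protein-coding genes (0.311%). In the sequences, all from the 3′ UTR, capitals mark the stem, loop and stem, and lower case the flanking bases.
Hist1h1a, chr13:23764387-23764412, plus strand: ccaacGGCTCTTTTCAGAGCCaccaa
Hist1h4f, chr13:23551286-23551311, minus strand: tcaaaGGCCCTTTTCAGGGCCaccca
Hist1h3a, chr13:23761885-23761910, minus strand: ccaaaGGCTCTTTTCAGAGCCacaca
Hist1h2bb, chr13:23747198-23747223, plus strand: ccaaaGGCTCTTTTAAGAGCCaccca
Hist1h2bc, chr13:23684642-23684667, plus strand: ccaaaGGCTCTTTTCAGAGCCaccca
H2afx, chr9:44335235-44335260, plus strand: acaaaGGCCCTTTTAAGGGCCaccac
Of the 63 listed or replacement histone genes with a match, 40 shared the form in Hist1h1a. The same stem-loop stood in genes that rose and in Hist1h2bc, which did not.

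Hist1h1a, a linker histone, had 522, 559 and 575 normalized counts at day 0 and 18890, 20930 and 22320 at day 4. The groups were separated by a fold change of 37.5 (log2 5.23 ± 0.10, adjusted p = 6.64e-11). Hist1h4f, a histone H4 gene, had 19.8, 17.4 and 22.2 at day 0 and 712, 836 and 949 at day 4, a fold change of 41.8. Hist1h3a, a histone H3 gene, had 21.8, 24.5 and 25.2 at day 0 and 816, 954 and 855 at day 4. Among histone H2A and H2B genes, Hist1h2ak rose by 4.93 and Hist1h2bb by 4.52 on the log2 scale. Hist1h4n was at 0 in all day 0 libraries and had 13.6, 10.9 and 34.2 normalized counts at day 4. It was at least 6.52-fold higher, with a floor of 3 counts per library at day 0. With that gene at its bound the list median was 3.57.

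Every class of histone was affected. All 6 tested H1 genes rose, with a median of 3.30, as did all 9 H2A genes (3.67), all 9 H3 genes (4.16) and all 12 H4 genes (3.86). Several of these, mainly H2A genes, passed the filter on low counts only through day 4, so their direction was fixed by it. The H2B genes had a lower median of 2.32, with 14 of 16 higher. Several of the 14, such as Hist1h2bl and Hist1h2bn, also passed the filter only through day 4. The 2 exceptions were named after their values were seen. Hist2h2be, which had no match to the stem-loop search, had 28.7, 32.7 and 19.2 normalized counts at day 0 and 25.3, 13.9 and 17.1 at day 4, with overlap. Hist1h2bc had 55.4, 51.1 and 58.5 at day 0 and 41.8, 28.8 and 36.1 at day 4 (log2 −0.63, adjusted p = 0.0377). It did not pass without replicate 1 (0.096), replicate 2 (0.159) or replicate 3 (0.119). Many histone genes are near-identical copies, so uniquely mapped counts for single genes are uncertain, while the sum over the list is less affected.

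Summed over the list, histone mRNAs took 0.00896%, 0.00906% and 0.00879% of the counts at day 0 and 0.150%, 0.170% and 0.176% at day 4, an 18.5-fold higher share. The groups did not overlap (exact permutation test, p = 0.1, the smallest possible). Per ERCC count the fold was 8.97. Before actinomycin D the share was 0.610%, 0.702% and 0.663% at day 0 and 0.995%, 0.877% and 0.923% at day 4, so the mock difference was much smaller. The mock median over the list was 0.30, with 35 genes higher. The change from mock had a median of 3.21, with 48 genes higher and 1 lower.

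The time course gave the same order at each time. Relative to the mock mean per ERCC count, 3.29% ± 0.170 of histone counts was left at 120 min, 1.15% ± 0.205 at 240 min and 0.587% ± 0.0449 at 360 min on day 0 (SD, n = 3). On day 4, 25.7% ± 1.41, 15.3% ± 0.911 and 7.75% ± 0.968 was left. At 360 min the day 4 libraries ranged from 6.77% to 8.70% and the day 0 libraries from 0.539% to 0.628%. In clone 5F the mean left at 360 min was 0.451% on day 0 and 6.08% on day 4.

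**Figure D2:**
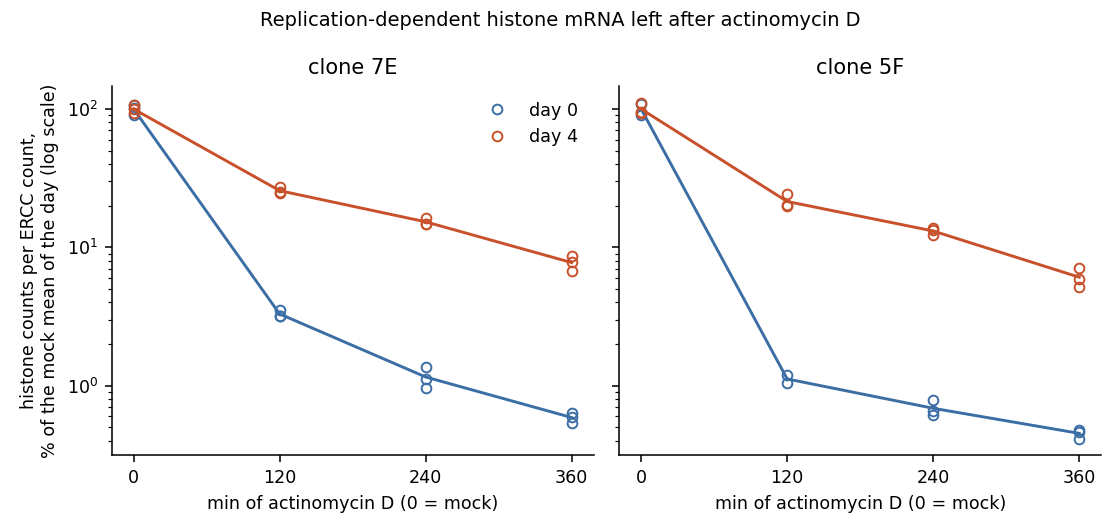
Summed counts of the replication-dependent histone list per ERCC count, as a percent of the mock mean (log axis), against minutes of actinomycin D for clones 7E and 5F on day 0 and day 4, with circles for libraries and lines for means. In clone 7E the day 0 mean falls to 0.587% at 360 min and the day 4 mean to 7.75%, with no overlap between the days from 120 min on.

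The replacement histones, which are polyadenylated and made outside S phase, did not rise with this group. Of 11 tested, 5 were lower and 6 did not pass, with a median of −0.32. Without replicate 1 and without replicate 2, 3 were lower. H1f0, the linker histone of slowly dividing cells, had 1622, 1652 and 1678 normalized counts at day 0 and 536, 558 and 610 at day 4. It fell by 1.54 on the log2 scale at 360 min, against −0.69 in mock. H2afz, the H2A.Z gene found at promoters, fell by 0.72. H2afx, which carries both a stem-loop and a poly(A) site, had a log2 difference of −0.10 and overlapping groups. Of 15 genes for histone mRNA processing and turnover, 2 were higher and 5 lower, with a median of −0.20. Without replicates 1, 2 and 3, 2, 1 and 5 were lower.

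Genes of the integrated stress response were mostly higher at day 4 before transcription was stopped, but not in the surviving pool. ATF4 is a transcription factor whose translation rises when eIF2α is phosphorylated, and its targets include genes of amino acid synthesis and uptake. In the mock libraries 25 of 29 tested members were higher at day 4 and 3 lower, with a median of 0.89. At 360 min 5 were higher and 12 lower, with a median of −0.22. The lower count was 9, 11 and 13 without replicates 1, 2 and 3, and the higher count was 2, 3 and 3. In the change from mock, 22 of the 29 were lower and 1 higher.

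Few members kept their rise at 360 min. Atf4 itself had 1305, 1279 and 1201 normalized counts at day 0 and 3311, 3133 and 3262 at day 4, a log2 difference of 1.36 ± 0.08, close to the 1.35 in mock. Ifrd1, a transcriptional co-regulator whose mRNA has an upstream open reading frame, had 501, 459 and 432 at day 0 and 2168, 1912 and 2203 at day 4. Its difference was larger at 360 min (2.17) than in mock (1.14), with a change from mock of 1.04.

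Other members moved the other way. Chac1, a glutathione-degrading enzyme, was 2.82 higher in mock. At 360 min it had 48.5, 35.8 and 42.4 normalized counts at day 0 and 39.9, 28.8 and 30.4 at day 4, which overlapped, and its change from mock was −3.17. The lipoprotein receptor gene Vldlr went from 2.59 in mock to −0.79 at 360 min, the latter with an adjusted p of 0.0618 without replicate 1. Its change from mock was −3.38. The amino acid transporters Slc1a4, Slc6a9 and Slc7a5 had changes of −2.20, −2.45 and −0.90. Of these, Slc1a4 was lower at 360 min (−0.39) and the other 2 did not pass. Asns, asparagine synthetase, had 14810, 15270 and 15260 normalized counts at day 0 and 10630, 10240 and 11990 at day 4, a difference of −0.46 where the mock difference was 0.27. Psat1, of serine synthesis, gave −0.44 and 0.30, and its call at 360 min had an adjusted p of 0.0559 without replicate 2. Ubap1l gave −1.36 and 0.94.

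Aminoacyl-tRNA synthetases, which charge tRNAs and include ATF4 targets, followed the same course. Of 21 tested, 18 were lower at 360 min and the other 3 did not pass, with a median of −0.32. The count was 8, 5 and 17 without replicates 1, 2 and 3. In mock 11 were higher, with a median of 0.13, and the median change from mock was −0.40, with 12 lower. Together they took 1.38%, 1.44% and 1.47% of the counts at day 0 and 1.14%, 1.15% and 1.22% at day 4, without overlap. Aars had 44570, 46880 and 47490 normalized counts at day 0 and 31860, 35060 and 33740 at day 4 (log2 −0.47 ± 0.07, adjusted p = 0.000695). Nars and Yars fell by 0.48 and 0.62. Of 20 endoplasmic reticulum chaperones and folding enzymes, 6 were higher and 3 lower, or 2 and 2, 2 and 1, and 3 and 2 without replicates 1, 2 and 3. The shares over all genes tested were 14.1% higher and 13.8% lower. Xbp1, a transcription factor of the unfolded protein response, rose by 0.52 (adjusted p = 0.0828 without replicate 1), and Herpud1, of protein degradation at that membrane, fell by 0.70 after being 1.07 higher in mock. Calr, a chaperone, had a difference of −0.08 and overlapping groups.

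**Figure D3:**
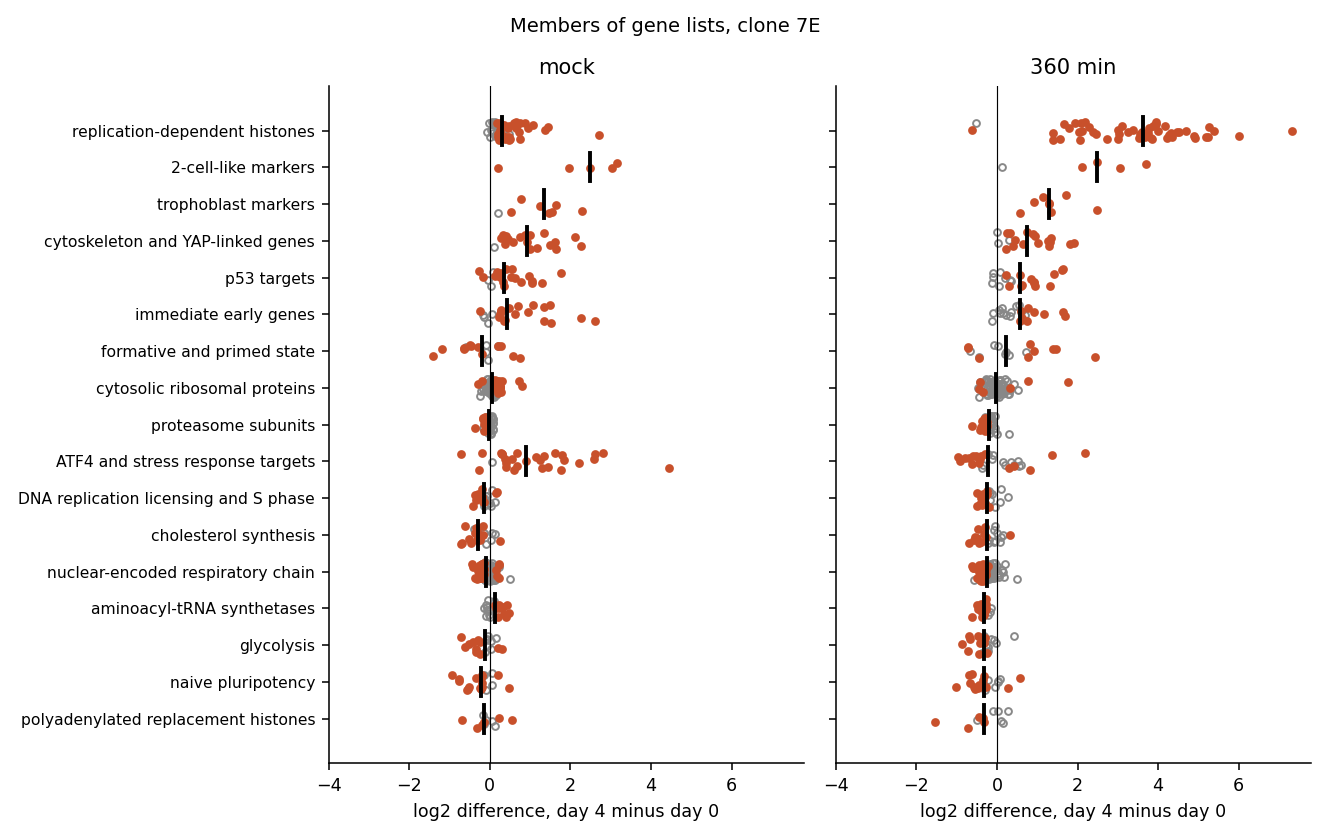
Log2 difference of day 4 minus day 0 for the members of 17 gene lists in the mock libraries and at 360 min in clone 7E, with filled points for genes past an adjusted p of 0.05, open points for the others and a bar for the list median. The histone list reaches a median of 3.63 at 360 min, and the aminoacyl-tRNA synthetase list moves from 0.13 in mock to −0.32.

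Genes of the actin cytoskeleton and of YAP signalling were higher at day 4 both before and after transcription was stopped. Of 19 tested, 16 were higher at 360 min, with a median of 0.74, and 18 in mock, with a median of 0.93. Without replicates 1, 2 and 3 the count was 13, 12 and 15. S100a6, a calcium-binding protein, had 1975, 2290 and 2492 normalized counts at day 0 and 7535, 7243 and 8892 at day 4, a log2 difference of 1.81 ± 0.11. Anxa1, a membrane-binding annexin, had 130, 151 and 160 at day 0 and 520, 469 and 673 at day 4. Ahnak, a large scaffold protein, rose by 1.34, and Flna, filamin A, by 0.40 (adjusted p = 0.0635 without replicate 2). On the ERCC scale, where all genes shifted by −0.97, 5 members were higher and 9 lower.

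Markers of trophoblast, the outer layer of the embryo, were also higher. All 8 tested trophoblast markers rose, with a median of 1.30 against 1.35 in mock, and 5, 5 and 7 without replicates 1, 2 and 3. The keratin gene Krt18 had 1386, 1382 and 1406 normalized counts at day 0 and 3189, 3359 and 3965 at day 4, and Krt8 rose by 1.30. The defining factors were rare. Cdx2, Elf5, Gata3 and Hand1 together gave 0.212 to 0.556 counts per 1000000 gene counts (CPM) at day 0 and 1.06 to 1.91 at day 4. Cdx2 (log2 1.70) did not pass without replicate 2 (adjusted p = 0.188) and Hand1 (2.49) without replicate 1 (0.0741). Both passed the filter on low counts only through day 4, so their direction was fixed by it. Elf5, at 0.0353 to 0.104 CPM at day 0 and 0 to 0.0709 at day 4, was not tested.

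Of 5 tested markers of 2-cell-like cells, a rare state of ES cells that resembles the early embryo, 4 rose with a median of 2.48. Zscan4d had 7.9, 2.0 and 2.0 normalized counts at day 0 and 40.8, 52.7 and 68.3 at day 4. Zscan4c, Zscan4d and Zfp352, which define the state, summed to 0.143 to 0.486 CPM at day 0 and 2.67 to 3.47 at day 4. All listed markers together gave 150, 171 and 155 CPM at day 0 and 185, 165 and 216 at day 4, with overlap. Zscan4 genes are near-identical copies, so single members are uncertain. Zscan4c and Zscan4d passed the filter on low counts only through day 4, so their direction was fixed by it.

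Fibroblast markers, included as a check for feeder cells, were higher for 4 of 7 tested, and for 3, 2 and 4 without replicates 1, 2 and 3. Acta2, smooth muscle actin, had 39.6, 34.8 and 34.3 at day 0 and 152, 182 and 194 at day 4. The 5 defining genes (Col1a1, Col1a2, Col3a1, Thy1 and Pdgfrb) summed to 5.26 to 6.39 CPM at day 0 and 10.1 to 11.9 at day 4. The whole list summed to 1052, 884 and 887 CPM at day 0 and 903, 975 and 696 at day 4, with overlap, and its part in the cytoskeletal result was not tested. Of 13 primitive endoderm markers 4 rose while 2 fell, and the list summed to 1947, 1787 and 1807 CPM at day 0 and 2129, 2278 and 1855 at day 4, with overlap. Its 6 defining genes summed to 9.08 to 11.4 CPM at day 0 and 8.13 to 10.5 at day 4, also with overlap. Without replicate 2, 3 rose and 1 fell. Among 5 neural markers 2 rose, with Nes at 1.08, and 2 fell, or 1 without replicate 1 or replicate 2. Of 5 blood markers 3 rose, or 2 without replicate 1. The blood marker Ptprc passed the filter on low counts only through its libraries after 4OHT, so its direction was fixed by it. Hba-a1, the defining marker of red blood cells, was at 0.

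Targets of p53 formed another group that was higher in the surviving pool. Of 21 tested, 13 were higher with a median of 0.57, and 9, 9 and 15 without replicates 1, 2 and 3. In mock 16 were higher and 2 lower, with a median of 0.36. Perp, a membrane protein of p53-dependent cell death, had 1477, 1508 and 1447 normalized counts at day 0 and 4396, 4126 and 4987 at day 4. Its difference of 1.61 compares with 0.98 in mock. Ccng1, cyclin G1, rose by 0.85 and Trp53inp1, a p53 cofactor, by 0.95, against 0.26 and 0.32 in mock. Trp53 itself had a difference of 0.20 with overlap. Scaled by ERCC counts, 3 of the 21 were higher and 10 lower. Of 22 immediate early genes, which respond to growth signals within minutes, 9 were higher and the others did not pass. The count was 6, 6 and 10 without replicates 1, 2 and 3. Ccn1 and Ccn2, which are also YAP targets, rose by 1.63 and 1.70, and Jun by 1.16.

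**Figure D4:**
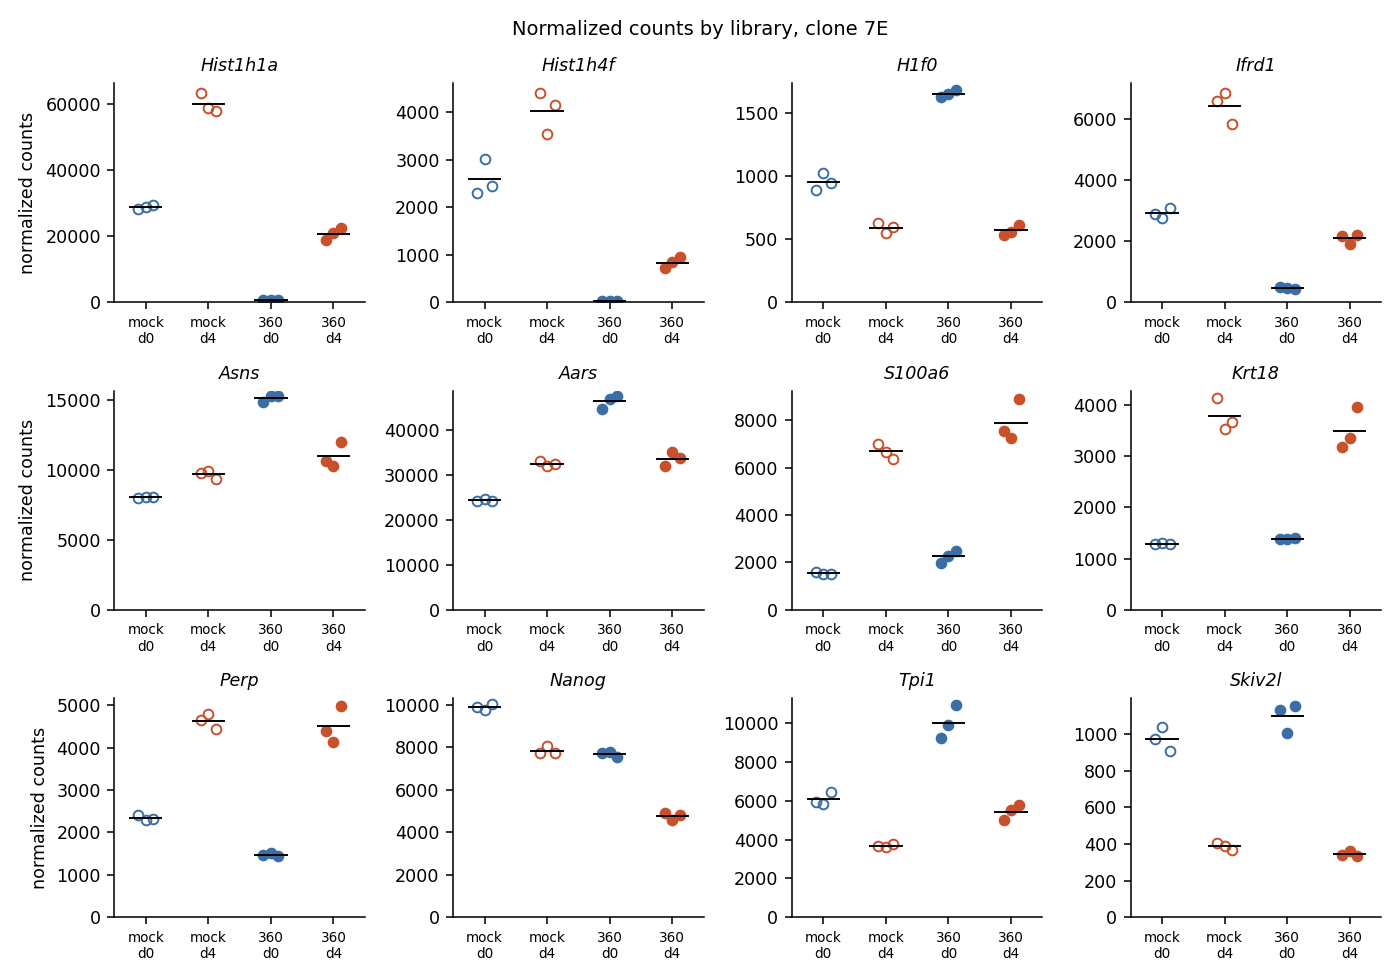
Normalized counts of 12 genes in each clone 7E library, mock and 360 min, day 0 and day 4, with circles for libraries and a bar for each mean of 3. Hist1h1a rises from 522 to 575 at day 0 to 18890 to 22320 at day 4 at 360 min, H1f0 and Nanog fall, and Asns is higher at day 4 in mock but lower at 360 min.

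Naive pluripotency genes, which mark ES cells in this medium, were lower at day 4. Of 20 tested, 11 fell and 2 rose, with a median of −0.32 at 360 min and −0.21 in mock. Without replicates 1, 2 and 3, 6, 8 and 11 fell. Nanog, a core transcription factor of the state, had 7721, 7757 and 7531 normalized counts at day 0 and 4930, 4580 and 4828 at day 4, a log2 difference of −0.68 ± 0.07 against −0.33 in mock. Fgf4, a signal that primes differentiation, fell by 1.01 and Esrrb by 0.66, the latter with an adjusted p of 0.0697 without replicate 1. Pou5f1 fell by 0.33 and did not pass without replicate 1 (0.133) or replicate 2 (0.108). The 9 markers that define ES cells, of which 6 fell and 1 rose, remained abundant, at 3086 to 3182 CPM at day 0 and 2416 to 2591 at day 4. The 1 that rose was Sox2, at 45.5 to 52.1 CPM at day 0 and 61.4 to 64.5 at day 4 (log2 0.28). Klf4 and Tbx3 did not pass.

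Genes of the formative and primed states, which follow the naive state, had calls in both directions, where 14.1% of all genes tested were higher and 13.8% lower. Of 17 tested, 6 rose and 3 fell. The counts were 3 and 2 without replicate 1, 3 and 3 without replicate 2, and 7 and 4 without replicate 3. Lefty1, an inhibitor of NODAL signalling, had 321, 283 and 290 at day 0 and 731, 798 and 807 at day 4. This rise of 1.38 was absent from mock, where the difference was −0.09, and the change from mock was 1.47. The ligand Nodal rose by 1.46. Dnmt3a, a de novo DNA methyltransferase, fell by 0.71.

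Several lists of housekeeping metabolism were lower by small amounts, and most of those calls rested on replicates 1 and 2 being kept. Of 78 nuclear-encoded respiratory chain genes 36 were lower, with a median of −0.26, but 8, 6 and 40 without replicates 1, 2 and 3. Of 38 proteasome subunits 14 were lower (3, 1 and 18), with a median of −0.19. Of 21 S phase genes 13 were lower (5, 3 and 10), with a median of −0.25, among them the helicase subunits Mcm4 and Mcm6 at −0.50 and −0.51. Of 22 cholesterol synthesis genes 10 were lower and 1 higher, and the lower count was 3, 6 and 8. Hmgcs1, an early enzyme of that pathway, fell by 0.44.

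Of 19 glycolysis entries, 10 were lower, with a median of −0.32, and 6, 7 and 12 without replicates 1, 2 and 3. Tpi1, triosephosphate isomerase, had 9229, 9942 and 10940 normalized counts at day 0 and 5023, 5544 and 5797 at day 4 (−0.88, against −0.72 in mock). Ldha, lactate dehydrogenase, and Pdk1, which restrains entry of pyruvate into mitochondria, each fell by 0.71.

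Among single genes with a mean of at least 100 counts, Itpka, an inositol phosphate kinase, fell as far as Skiv2l, with 157, 162 and 186 normalized counts at day 0 and 44.7, 49.7 and 60.7 at day 4 (−1.70). Upp1, uridine phosphorylase, had 5803, 5698 and 6244 at day 0 and 2195, 2379 and 2589 at day 4 (−1.31). The cell cycle gene Ccnd2 fell by 1.13. Other falls of this size were in the peptide transporter Slc15a1 (−1.43), Lix1l (−1.32), Cisd3 (−1.23), the transglutaminase Tgm2 (−1.21), the kinase Rps6ka2 (−1.18) and Aldh1b1 (−1.13). Of the largest rises outside the histones, picked after their values were seen, the serpin Serpinb9b had 30.7, 44.0 and 40.3 at day 0 and 269, 250 and 307 at day 4 (2.84), and the integrin Itga8 had 96.9, 96.1 and 105 at day 0 and 642, 628 and 728 at day 4 (2.74). Rprl2 had 128, 108 and 121 at day 0 and 79.7, 19810 and 147 at day 4, so its log2 difference of 5.81 came from replicate 2 alone and was −0.13 without it.

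With all libraries, most members of the lists of RNA decay and ribosome quality control did not pass. Of 15 RNA exosome genes 6 were lower and 1 higher, with a median of −0.26, and 2, 2 and 8 were lower without replicates 1, 2 and 3. Exosc7 fell by 0.50, and Mtrex, the nuclear exosome helicase MTR4, by 0.44 (adjusted p = 0.0585 without replicate 2). Of 15 nonsense-mediated decay factors 3 were higher and 2 lower, with Upf1 at 0.58, and 1 was higher without replicate 1 or replicate 2. Of 18 ribosome rescue and collision factors 1 was higher and 4 lower, or 1 lower without replicate 1 or replicate 2 and 5 without replicate 3. The 1 that rose was Map3k20, the collision-sensing kinase ZAK, with 652, 654 and 605 normalized counts at day 0 and 1090, 980 and 1008 at day 4 (0.69). Of 18 deadenylase genes 15 did not pass, and of 16 decapping genes 15 did not pass. Of 349 KRAB and other numbered zinc finger genes, 20 were higher and 38 lower with a median of −0.00. They gave 7 and 14, 11 and 12, and 25 and 38 without replicates 1, 2 and 3. With all libraries, both zinc finger counts lay below the shares over all genes tested, which were 14.1% higher and 13.8% lower. The Y RNA Rny3, part of Ro particles, had 593, 491 and 521 at day 0 and 171, 231 and 344 at day 4 (−1.11). Of the genes the study names, which it picked from data of this series, Mdk fell by 0.57 and Vdac1 by 0.38, while Noc2l, Pdia4 and Pim3 overlapped between the days. Sfpq and Trim28 were also called lower. Neither passed without replicate 1 (adjusted p 0.102 and 0.110) or without replicate 2 (0.173 and 0.0903).

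The authors also deposited a relative binding ratio per mRNA from CRAC, a crosslinking method that maps where a tagged protein touches RNA. It is the scaled read count of 1 protein divided by the sum for SKIV2L, XRN1 and MTR4, from pooled libraries, so it has no replicate error. For 7173 mRNAs with such a value, histones left out, the median difference at 360 min was −0.059, with 11.0% higher and 20.0% lower. From the lowest to the highest quintile of relative SKIV2L binding the medians were −0.007, −0.028, −0.035, −0.086 and −0.143. The percent called lower rose from 13.2 to 29.5 and the percent called higher went from 13.4 to 8.08. In mock the medians of the outer quintiles were −0.060 and −0.006, the opposite order. The highest quintile stood at −0.152, −0.127 and −0.154 without replicates 1, 2 and 3. Scaled by total counts, the outer quintiles were at 0.073 and −0.063. Replicates of 1 day also differed along this order by amounts of similar size. In the highest quintile their median deviations were −0.068, 0.007 and 0.055 at day 0 and −0.040, −0.038 and 0.095 at day 4. In the lowest quintile they were 0.030, −0.002 and −0.034 at day 0 and 0.033, 0.039 and −0.062 at day 4.

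The other factors gave other orders. For AVEN the medians from the lowest to the highest quintile were −0.073, −0.087, −0.088, −0.060 and −0.001, with 15.1% higher and 13.1% lower in the highest. For XRN1, the 5′ to 3′ exonuclease, they were −0.067, −0.087, −0.078, −0.053 and −0.020, so neither moved in 1 direction throughout. For MTR4 they were −0.112, −0.079, −0.053, −0.038 and −0.022. These 3 ratios sum to 1 for a gene, and the AVEN ratio has the same denominator, so the orders are not independent of each other. Transcript length moved with the same difference, from −0.114 in the shortest quintile to −0.029 in the longest, and its part in the binding order was not tested. Replicates differed along length too. In the shortest quintile they deviated by −0.056, −0.007 and 0.053 at day 0 and by −0.085, −0.0002 and 0.105 at day 4.

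**Figure D5:**
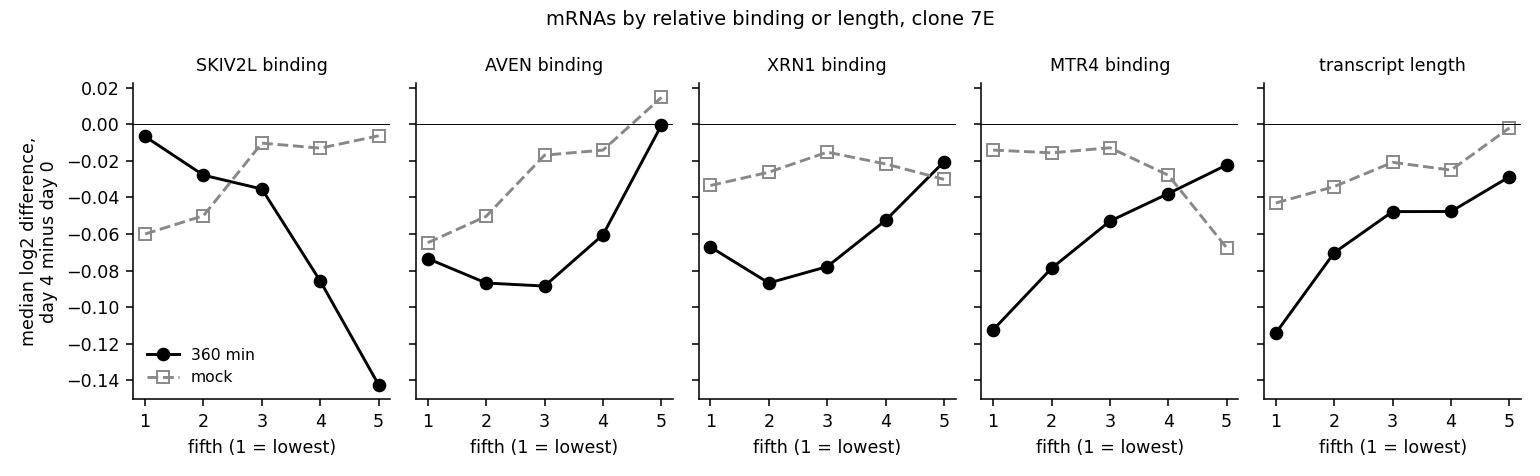
Median log2 difference of day 4 minus day 0 for mRNAs of clone 7E grouped in quintiles by relative binding of SKIV2L, AVEN, XRN1 and MTR4 and by transcript length, at 360 min and in mock. Binding was measured in cells with intact Aven. At 360 min the median declines from −0.007 to −0.143 across the quintiles of SKIV2L binding and climbs from −0.112 to −0.022 across those of MTR4.

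Clone 5F, with intact Aven, was compared at the same time by a test of clone and day together. The day 4 minus day 0 difference was larger in clone 7E for 349 of 16204 genes (2.15%) and smaller for 168 (1.04%). Same-numbered libraries of both clones deviated together within each day, and with the replicate number as a block within each day, an alternative chosen after seeing the data, 1454 and 1721 genes were called. The clones are 1 each and differ in the tag and BirA as well, so clone and Aven genotype cannot be told apart. Histones rose in both. In clone 5F alone 85 of 15409 genes (0.552%) were higher and 28 (0.182%) lower at day 4, and 45 listed histones were among the higher ones, with a median of 3.76. Of the 52 in the fit of both clones, 6 differed between the clones, all with a smaller difference in clone 7E. The levels themselves were higher in clone 7E on both days. The list took 0.00460% to 0.00475% of the counts at day 0 in clone 5F, against 0.00879% to 0.00906% in clone 7E. At day 4 it took 0.111% to 0.126%, against 0.150% to 0.176%. Hist1h1a, Hist1h1d and Hist1h1c had clone differences of −1.20, −1.17 and −0.88. Skiv2l had a clone difference of −1.61. In clone 5F at 360 min it had 5154, 4926 and 5431 normalized counts at day 0 and 4609, 4655 and 5596 at day 4, with overlapping groups, and the test was not passed (log2 −0.06). The gene total holds exons outside the deleted ones, so it does not settle the deletion in libraries labelled clone 5F, day 4. These counts also lay far above those of clone 7E at day 0, so the clones differed in Skiv2l before 4OHT.

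Of 19 cytoskeleton and YAP-linked genes 9 had a larger difference in clone 7E, among them S100a6 (1.51) and Anxa1 (1.58). Krt18 and Krt8 gave 1.04 and 1.07, Acta2 1.81, Perp 1.10, Atf4 0.70 and Ifrd1 0.74. Itga8 and Serpinb9b, picked after their values were seen, gave 2.24 and 2.42. Of the 29 ATF4 and stress response targets, 26 did not differ between the clones. In clone 5F alone, 7 of the 29 were lower and 2 higher at 360 min, with a median of −0.22. For the 21 synthetases, 3 were lower there, with a median of −0.21. Among genes lower in clone 7E, H1f0 gave −0.997, Upp1 −0.98, Fgf4 −0.91 and Tpi1 −0.59. All 18 genes named for this comparison kept their call with the block within each day. Without the block, the comparison depended on replicate 1. Without that replicate 12 genes were called larger and 3 smaller, and of the 18 genes Skiv2l, Hist1h1a, Acta2 and Itga8 kept their call. The adjusted p of the other 14 then lay between 0.0689 for H1f0 and 0.272 for Hist1h1c. Without replicate 2, where 97 and 24 genes were called, Atf4, Ifrd1, Fgf4 and Tpi1 did not pass, with adjusted p of 0.0707 to 0.171.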

How the data were processed

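Raw counts per gene, one per uniquely mapped 50-nt read of rRNA-depleted RNA (GRCm38), were deposited by the authors without normalization, together with ERCC counts. Per the labels these libraries used the TruSeq v2 kit. Whether gene counting used strand is not given in the sources used here, so counts of antisense partners are uncertain. The binding ratio was also computed and deposited by the authors. Their half-lives were not used, nor was 1 column of per-sample values in the count table. Groups came from the labels, and 46 libraries were read.

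Genes passing filterByExpr were tested with edgeR 4.0.16 (quasi-likelihood, R 4.3.3), with median-of-ratios size factors and Benjamini-Hochberg adjustment over all genes tested, threshold 0.05. Adjusted p-values in the text come from this test unless an exact test is named. Alternatives used DESeq2 1.42.0, limma 3.58.1 (voom with sample quality weights), TMM, total counts, 34 of 92 ERCC RNAs, other filters and left-out replicates. Same-numbered day 0 and day 4 libraries deviated together by r of 0.33, −0.31 and 0.57, so the numbers were not treated as pairs for the comparison of days. Between the clones, same-numbered libraries gave r of 0.43, 0.14 and 0.53 on day 0 and 0.44, 0.60 and 0.82 on day 4, and a fit with the replicate number as a block within each day was added after seeing the data. The test was tried on simulated counts with noise independent between genes. With 200 of 15251 genes changed at 360 min, 29.5% of 0.5 log2 changes and 80% of 1 log2 changes were recovered. Each size also gave 8 false calls. In the libraries themselves genes deviated together along binding and length, which the simulation did not include.

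The gene lists and comparisons were chosen with earlier results of these data known. Named genes were Skiv2l and Aven, the 15 largest rises and 15 largest falls (mean 100 counts or more, 1 sign with any replicate number left out), the 3 most abundant and up to 3 most changed members of each list, the 10 largest shares, the 5 largest changes from mock in each direction and the genes the study names. Of the named set, those that add most are printed.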

Additional observations from a re-analysis of the deposited data

Results flagged for a closer look

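The day 4 minus day 0 difference changed from mock to 360 min, by the test of that change itself, for 511 genes upwards and 365 downwards in clone 7E. Among the genes named, upward changes were 4.17 in Hist1h1a, 3.61 in Hist1h1d, 4.44 in Hist1h3a, 4.74 in Hist1h4f, 1.47 in Lefty1, 1.04 in Ifrd1, 0.97 in Rpl3, 0.63 in Perp, 0.63 in Trp53inp1 and 0.58 in Ccng1. Without replicate 1, Perp, Trp53inp1 and Ccng1 did not pass (adjusted p 0.0766, 0.0897 and 0.139). Downward changes were −3.38 in Vldlr, −3.17 in Chac1, −2.45 in Slc6a9, −2.30 in Ubap1l, −2.20 in Slc1a4, −0.97 in Yars, −0.90 in Slc7a5, −0.89 in Aars, −0.87 in Nars, −0.85 in H1f0, −0.74 in Psat1 and −0.73 in Asns.

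The day 4 minus day 0 difference at 360 min differed between clones 7E and 5F, by the test of that difference, for 349 genes in the upward and 168 in the downward direction. Larger differences in clone 7E were 2.42 in Serpinb9b, 2.24 in Itga8, 1.81 in Acta2, 1.58 in Anxa1, 1.51 in S100a6, 1.10 in Perp, 1.07 in Krt8, 1.04 in Krt18, 0.74 in Ifrd1 and 0.70 in Atf4. Smaller ones were −1.61 in Skiv2l, −1.20 in Hist1h1a, −1.17 in Hist1h1d, −0.997 in H1f0, −0.98 in Upp1, −0.91 in Fgf4, −0.88 in Hist1h1c and −0.59 in Tpi1. Without replicate 1 the test called 12 and 3 genes. Each clone stands for 1 genotype, and clone and genotype cannot be told apart.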

How the results depend on the processing

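At 360 min, 2147 genes were higher and 2106 lower. Leaving out replicates gave 1073 to 2561 higher and 725 to 2675 lower. Without replicate 3 of day 0 alone the counts were 1468 and 1142, and without replicate 3 of day 4 alone 2561 and 2675. ERCC scaling gave 251 and 12286, total counts 1269 lower, a mean of at least 100 counts 1359 higher, and a limit of 2-fold 726 and 79. The change from mock (511 and 365) gave 227 and 42 with ERCC, 1156 and 167 with total counts, 1138 and 1322 with voom, 611 lower with TMM, and 96 to 398 and 60 to 342 with replicates left out. The comparison of clones (349 and 168) gave 41 and 8927 with ERCC, 936 and 785 with voom, 254 lower with DESeq2, and 12 to 228 and 3 to 111 with replicates left out. The mock counts (3374 and 3181) became 258 and 14716 with ERCC, and 2377 to 3138 and 1952 to 2811 with replicates left out. The log2 ratio of the histone share, 4.21, was 3.17 per ERCC count and 4.15 to 4.28 with replicates left out. The histone list median of 3.63 was 2.68 with ERCC, 4.01 over genes with a mean of at least 100 counts, 3.38 over genes with any count, and 3.48 to 3.82 with replicates left out. Rprl2, at 5.81, reversed to −0.13 without replicate 2, over a range of −0.13 to 6.44 with replicates left out. Of the other values for single genes, shares and lists over all alternatives, 5634 kept their direction and side of the threshold or stayed within their spread, 207 lost a call, 160 gained one and 196 moved.

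The replicate numbers did not pair day 0 with day 4 libraries of clone 7E. With the replicate block, 2368 genes were higher and 2500 lower at 360 min, 363 and 263 in the change from mock, 3138 and 2867 in mock, and 556 and 375 between the clones. With the replicate block within each day, across the clones, which deviated together by number, the comparison of clones gave 1454 and 1721. Depth limits the low counts, since most genes that rose at least 2-fold had few counts (median mean count 36.2).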
